A study of Mus musculus and Macaca nemestrina with 20 samples.

Results

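The tumour necrosis factor (TNF) superfamily was followed in dorsal root ganglia of mice and monkeys. Its members were taken by name: every row called Tnf, or beginning with Tnfsf (ligands) or Tnfrsf (receptors), with the same names in capitals for monkeys. This gave 33 of 29766 genes in mice (13 ligands and 20 receptors) and 30 of 35194 in monkeys (11 ligands and 19 receptors), that is 63 of 64960 rows in all. Superfamily genes with other names, such as Fas, Cd40, Ltb and Ngfr, were held as separate lists. Dorsal root ganglia are the clusters beside the spinal cord that house the cell bodies of sensory neurons, and whole ganglia were measured by bulk RNA sequencing. In mice, 7 libraries labelled as knockout of ADAM17 were compared with 7 controls labelled ADAM17 flox, a name for an allele flanked by loxP sites. The library names of the same controls read ADAM17WT instead. In pig-tailed monkeys (Macaca nemestrina), 3 libraries from ganglia of SADBE-treated skin (squaric acid dibutyl ester, which sensitises and inflames skin) were compared with 3 from vehicle. The mouse libraries came in 2 labelled batches: batch 1 held flox 1 to 3 and knockout 1 to 4, and batch 2 held flox 4 to 7 and knockout 5 to 7. The labels name no Cre line, no recombined tissue and no deleted exon, and give neither strain, age nor sex, nor the number of animals behind a library. The p-values therefore measure the spread between libraries, which may be technical.

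TNF superfamily ligands are mostly trimeric membrane proteins that bind receptors carrying cysteine-rich domains. Receptors with a death domain recruit TRADD or FADD and can lead to caspase-8 or RIPK3 activity, and many of the others recruit TRAF proteins directly. Both routes can reach NF-kappaB. ADAM17, also called TNF-alpha converting enzyme, is the protease that cuts TNF from the cell surface and also releases the extracellular parts of both TNF receptors. That cut acts on protein, whereas the values here are RNA levels. In sensory ganglia TNF is known for sensitising nociceptors after injury or inflammation.

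Library totals in mice were 46.9 to 52.1 M estimated counts for flox and 12.1 to 14.7 M for knockout in batch 1, and 30.9 to 36.0 M for flox and 27.9 to 30.8 M for knockout in batch 2. Monkey totals were 13.7 to 27.1 M for vehicle and 9.02 to 22.4 M for SADBE. The ganglion label was checked against 10 sensory neuron markers, all of which were detected and tested in mice, and their summed level was 3577 to 7033 CPM (counts scaled to library size) in flox and 5145 to 8879 CPM in knockout. Adam17 itself (chr12:21323509-21373632, minus strand, GRCm38) had a median of 6.43 TPM in flox (5.75 to 9.51) and 7.32 TPM in knockout (4.70 to 9.18), with a log2 fold change of 0.03 ± 0.18 (edgeR adjusted p = 0.930). Gene-level reads do not show whether an exon was lost, so this does not check the genotype. Knockout libraries 6 and 7 stood apart by the Y-linked gene Ddx3y, with 1857 and 1914 counts against at most 6 in the other 12 libraries. Both belong to batch 2, and no flox library resembled them in this, so the difference is partly confounded with genotype there. Of 12 neutrophil markers, 10 were called higher in knockout and their summed level was 63.4 to 632.9 CPM in flox and 654.7 to 5106 CPM in knockout. Of 7 Schwann cell markers, 5 were called lower (5138 to 10227 CPM in flox, 3002 to 5397 CPM in knockout), as were 5 of 6 fibroblast markers (2917 to 5840 CPM in flox, 1386 to 3373 CPM in knockout). In bulk tissue, fewer cells of a type and less RNA per cell cannot be told apart.

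Levels between genes were compared in TPM, an abundance scaled to the library and to transcript length. In flox ganglia the receptors led the family. Tnfrsf21, or death receptor 6, a death-domain receptor studied in axon pruning, had the highest median at 35.1 TPM (19.3 to 40.5). Tnfrsf1a, TNF receptor 1 with a death domain, followed at 26.2 TPM (12.6 to 41.7), and Tnfrsf12a, or Fn14, the receptor of the cytokine TWEAK and a gene known to be induced by injury, at 18.0 TPM (11.7 to 24.5). These 3 ranges overlap across libraries. Within every flox library Tnfrsf21 was nevertheless above Tnfrsf12a, while the place of Tnfrsf1a relative to Tnfrsf21 and Tnfrsf12a varied between libraries. Next came Tnfrsf11b (osteoprotegerin, a soluble decoy) at 5.93 TPM (3.76 to 9.62), Tnfrsf11a (RANK) at 3.42 TPM (1.5 to 5.33) and Tnfrsf22, a decoy receptor for TRAIL, at 3.20 TPM (2.34 to 4.93). The lowest value of each of the first 3 receptors was above the highest of these last 3.

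The ligands with the highest levels in flox came from a single locus. Tnfsfm13 had a median of 13.5 TPM (6.26 to 19.0), Tnfsf12 (TWEAK) 12.7 TPM (6.96 to 23.4) and Tnfsf13 (APRIL) 8.65 TPM (2.46 to 12). Tnfsf9 (4-1BB ligand) came next with 1.94 TPM (0.663 to 2.80). At 1 TPM or more in the flox median stood 6 of 13 ligands and 11 of 20 receptors. Tnf was not among them, as its median was 0.

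In the mouse comparison, 4 of the 23 members that had enough counts to be tested were called at an adjusted p under 0.05 by edgeR's quasi-likelihood test with batch in the model. The receptors Tnfrsf12a and Tnfrsf21 rose in knockout, and the ligands Tnfsf12 and Tnfsf15 fell. That is 17.4% of the tested members, and the same test called 15.5% of all 15654 genes (7.97% higher and 7.51% lower), so the family was called about as often as genes in general. Unadjusted p-values under 0.05 were found for 11 of 23 members (47.8%), with 4 higher and 7 lower, against 30.9% of all genes. Another 7 members had an adjusted p between 0.05 and 0.1. The median log2 fold change of the members was -0.20 against -0.01 over all genes, and the median size regardless of sign was 0.54 against 0.27. Members were also measured less precisely, with a median SE of 0.35 against 0.19. Of the 8 tested ligands 6 had a negative log2 fold change, and of the 15 receptors 9 were negative and 6 positive. For 0 members did the groups avoid overlap in both batches in the same direction, which 5.49% of all genes did. For 0 members did the 7 knockout and 7 flox libraries avoid overlap altogether, against 2.06% of all genes. The share of all genes whose groups avoid overlap within a single batch is not given. Separation in a single batch, mentioned below for some members, is therefore only descriptive.

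**Figure D1:**
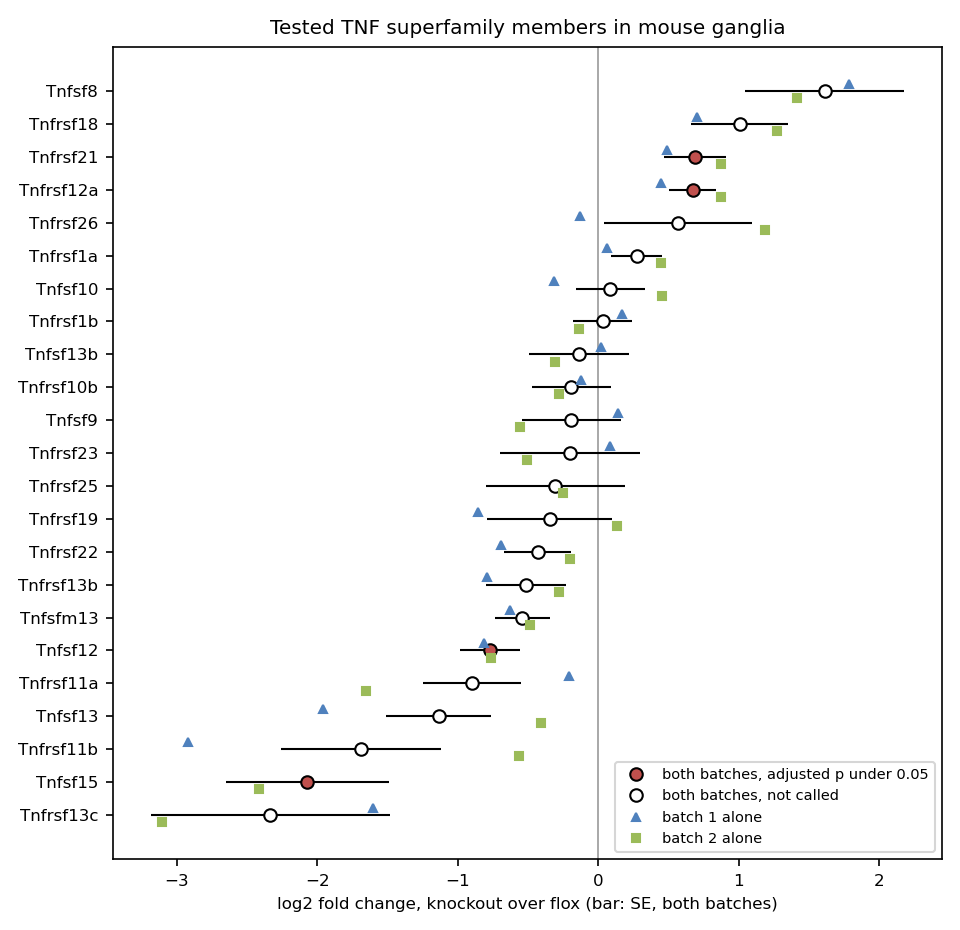
Log2 fold change of knockout over flox for the 23 tested members. Circles with SE bars are from both batches with batch in the model (filled red for an edgeR adjusted p under 0.05), triangles from batch 1 alone and squares from batch 2 alone. Tnfsf15 and Tnfrsf25 had too few counts for a batch 1 value. Tnfsf15, at -2.07, is the called member farthest from 0, and the triangle and square of Tnfrsf11b lie at -2.92 and -0.57.

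The 3 called members with a promoter in the RefSeq table are shown first, since they are the genes whose RNA differed. Each line is the 250 bases upstream of the RefSeq start in the transcribed direction (build GRCm38.p6), and capitals mark a GC box, GGGCGG or its reverse complement CCGCCC. The windows are chr17:23677450-23677699 (minus strand) for Tnfrsf12a, chr17:43016305-43016554 (plus strand) for Tnfrsf21 and chr4:63745060-63745309 (minus strand) for Tnfsf15. By the GENCODE coordinates given below, Tnfrsf12a and Tnfsf15 start slightly inside their windows, so the last bases of those windows lie within the gene.
Tnfrsf12a: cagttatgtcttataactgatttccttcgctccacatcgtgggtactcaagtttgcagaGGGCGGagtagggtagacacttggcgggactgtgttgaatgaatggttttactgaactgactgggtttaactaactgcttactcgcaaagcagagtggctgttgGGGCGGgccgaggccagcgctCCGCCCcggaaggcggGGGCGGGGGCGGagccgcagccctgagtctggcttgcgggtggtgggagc
Tnfrsf21: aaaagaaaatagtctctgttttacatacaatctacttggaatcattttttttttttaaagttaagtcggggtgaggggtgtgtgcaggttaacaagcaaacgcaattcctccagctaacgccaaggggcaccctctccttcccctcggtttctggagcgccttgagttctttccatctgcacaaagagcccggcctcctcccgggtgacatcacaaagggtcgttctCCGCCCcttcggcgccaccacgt
Tnfsf15: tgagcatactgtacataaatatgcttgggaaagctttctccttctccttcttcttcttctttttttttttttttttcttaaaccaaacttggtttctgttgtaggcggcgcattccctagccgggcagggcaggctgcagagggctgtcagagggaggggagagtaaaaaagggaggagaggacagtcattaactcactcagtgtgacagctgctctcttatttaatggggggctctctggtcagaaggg
Tnfrsf12a holds 5 GC boxes, Tnfrsf21 holds 1 and Tnfsf15 holds 0. Among 32851 mouse windows of this length, 32.7% hold at least 1 GC box and 1.93% hold 5 or more. Searches on both strands for a TATA box (TATAAA, in 12.4% of windows), an AP-1 site (TGANTCA, 6.75%) and a kappaB site (GGG and TTTCC with 2 bases between, 1.41%) found no match in these 3 windows. A match is a description of the letters and not of binding. Of the 33 mouse members 26 were matched in the table.

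The TWEAK ligand and its receptor moved in opposite directions. Tnfrsf12a lies at chr17:23675445-23677468 (minus strand, GRCm38). In batch 1 it measured 11.8, 14.4 and 8.75 CPM in flox and 11.9, 12.5, 20.1 and 20.2 CPM in knockout. In batch 2 it measured 17.8, 14.1, 12.1 and 15.1 CPM in flox and 29.8, 23.9 and 27.3 CPM in knockout. All 3 knockout libraries of batch 2 were above all 4 flox libraries, while in batch 1 the groups overlapped. Group means were 11.7 ± 2.83 (SD, n = 3) and 16.2 ± 4.59 CPM (n = 4) in batch 1, and 14.8 ± 2.40 (n = 4) and 27.0 ± 2.95 CPM (n = 3) in batch 2. The log2 fold change was 0.67 ± 0.17, or 1.59-fold (edgeR adjusted p = 0.0140). Alone, batch 1 gave 0.44 ± 0.27 (edgeR adjusted p = 0.454) and batch 2 gave 0.87 ± 0.18 (edgeR adjusted p = 0.0132). The call was kept when any single library was left out (edgeR adjusted p 0.00861 to 0.0411) but not without knockout libraries 6 and 7 together, where the log2 fold change was 0.65 ± 0.20 (edgeR adjusted p = 0.0514).

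Tnfsf12, which encodes TWEAK, lies at chr11:69686250-69695849 (minus strand). It measured 7.71, 13.5 and 12.8 CPM in flox and 7.10, 5.39, 4.42 and 9.60 CPM in knockout of batch 1. In batch 2 the values were 12.2, 14.0, 21.5 and 17.7 CPM in flox and 6.35, 11.4 and 11.0 CPM in knockout. The batch 2 groups did not overlap, and in batch 1 flox 1 lay within the knockout range. Tnfsf12 fell by 0.77 ± 0.21 on the log2 scale, to 0.585 of the flox level (edgeR adjusted p = 0.0237), with -0.81 in batch 1 and -0.77 in batch 2. Neither batch alone was called (edgeR adjusted p = 0.243 and 0.0974). The call was lost without flox 2, 3 or 6 or knockout 5 (edgeR adjusted p up to 0.0603) and was kept without knockout 6 and 7 (-0.95 ± 0.26, edgeR adjusted p = 0.0312).

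Reads of Tnfsf12 can be split with its neighbours. Tnfsf13 (chr11:69682846-69685784) and the readthrough gene Tnfsfm13 (chr11:69682577-69696098) are on the same strand and overlap the same stretch, so their separate values are uncertain. Tnfsf13, whose product APRIL supports plasma cells, measured 2.82, 14.1 and 7.19 CPM in flox and 3.08, 1.67, 1.45 and 2.30 CPM in knockout of batch 1. The batch 2 values were 9.49, 8.39, 12.6 and 11.2 CPM in flox and 3.48, 9.59 and 10.4 CPM in knockout. Its log2 fold change of -1.14 ± 0.37 lay just outside the threshold (edgeR adjusted p = 0.0503), and without knockout 6 and 7 it was -1.81 ± 0.36 (edgeR adjusted p = 0.00609). Tnfsfm13 gave -0.54 ± 0.20 (edgeR adjusted p = 0.0754), with 9.06 to 18.5 CPM in flox and 7.16 to 12.4 CPM in knockout of batch 1, and 15.4 to 23.0 and 8.82 to 17.6 CPM in batch 2. To avoid the split, the 3 rows were added, a choice made after seeing the data. The sum was 33.6 ± 12.3 CPM (SD, n = 3) in flox and 18.2 ± 4.19 CPM (n = 4) in knockout of batch 1, and 46.7 ± 8.74 (n = 4) and 31.6 ± 11.3 CPM (n = 3) in batch 2. The locus as a whole fell by 0.72 ± 0.20 on the log2 scale (edgeR adjusted p = 0.0245), but neither batch alone was called (edgeR adjusted p = 0.141 and 0.173). Summed Schwann cell and fibroblast markers, given above, were lower in the same libraries, and their part in these values was not tested.

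Tnfrsf21 (chr17:43016555-43089189, plus strand) was higher in knockout with uneven values. In batch 1 it measured 127, 82.3 and 114 CPM in flox and 162, 216, 149 and 90.0 CPM in knockout. Batch 2 gave 97.3, 107, 86.0 and 109 CPM in flox and 299.8, 136 and 108 CPM in knockout. Knockout 5 was more than any other library, and the lowest knockout library of each batch lay within the flox range. Tnfrsf21 rose by 0.69 ± 0.22 on the log2 scale, or 1.61-fold (edgeR adjusted p = 0.0440). Batch 1 alone gave 0.49 (edgeR adjusted p = 0.415) and batch 2 alone 0.87 (edgeR adjusted p = 0.0795). The call rested on single libraries: it was lost in 10 of 14 fits that each left out 1 library. Without knockout 5 the log2 fold change was 0.42 (edgeR adjusted p = 0.145), and without knockout 6 and 7 it was 0.89 ± 0.22 (edgeR adjusted p = 0.0202). Sensory neuron markers stood higher in knockout too, with Prph, Isl1 and Tubb3 called out of 10, and their part in the Tnfrsf21 value was not tested.

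**Figure D2:**
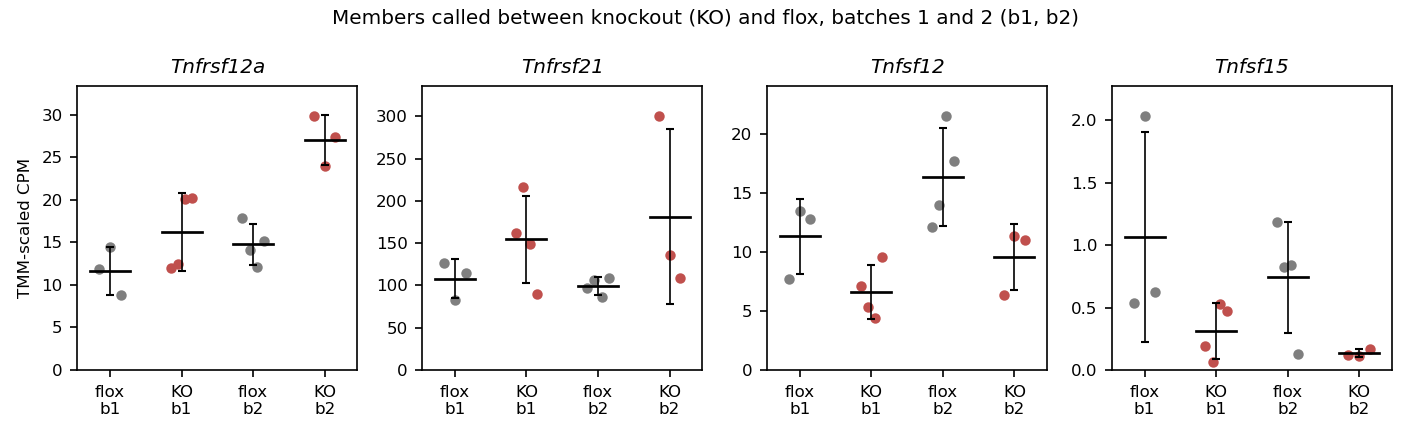
TMM-scaled CPM of the 4 called members in each library, flox in grey and knockout (KO) in red, for batch 1 (b1) and batch 2 (b2). Lines are means and bars SD over 3 or 4 libraries. Tnfrsf12a in batch 2 (23.9 to 29.8 CPM in knockout, 12.1 to 17.8 CPM in flox) shows groups that do not overlap, while the Tnfrsf21 mean of knockout in batch 2 is raised by the library at 299.8 CPM.

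Tnfsf15 and Tnfsf8, which are both ligands and lie on the same strand of chromosome 4, gave log2 fold changes of opposite sign. Tnfsf15 (chr4:63727084-63745113, minus strand) encodes TL1A, the ligand of the death-domain receptor DR3. It was a rare transcript, with 0.536, 2.03 and 0.628 CPM in flox and 0.188, 0.0641, 0.528 and 0.476 CPM in knockout of batch 1. In batch 2 it stood at 1.18, 0.824, 0.838 and 0.124 CPM in flox and at 0.121, 0.114 and 0.170 CPM in knockout. The batch 1 groups did not overlap, though the gap between the nearest libraries was small, and in batch 2 flox 7 lay among the knockout libraries. These values rest on 4 to 109 counts per flox library and 1 to 8 per knockout library. Tnfsf15 fell by 2.07 ± 0.58 on the log2 scale, to 0.238 of the flox level (edgeR adjusted p = 0.0250). Batch 2 alone gave -2.42 (edgeR adjusted p = 0.108), and batch 1 alone had too few counts to be tested. The call was lost without flox 2 (-1.72, edgeR adjusted p = 0.0894), knockout 5 or knockout 6, and without knockout 6 and 7 together (-1.97 ± 0.73, edgeR adjusted p = 0.0982). Tnfrsf25, the gene of DR3, measured 0.118 to 1.09 CPM in flox and 0.128 to 0.858 CPM in knockout (log2 fold change -0.31 ± 0.49, edgeR adjusted p = 0.711).

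Tnfsf8 (chr4:63831308-63861347, minus strand) encodes CD30 ligand, found on activated leukocytes. It measured 0.778, 0.782 and 0.574 CPM in flox and 1.51, 0.577, 2.84 and 5.16 CPM in knockout of batch 1, and 2.43, 0.118, 0.516 and 0.436 CPM in flox and 1.70, 2.59 and 2.68 CPM in knockout of batch 2. In both batches 1 library broke the separation, knockout 2 in batch 1 and flox 4 in batch 2. The log2 fold change of 1.61 ± 0.57 was not called (edgeR adjusted p = 0.0644). Tnfrsf8, the gene of its receptor CD30, had 1 count in all flox libraries and 14 in all knockout libraries, too few to test.

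Receptors and ligands of the BAFF and APRIL system, which acts on B and plasma cells, are given next, and 0 of the tested ones below were called. Tnfrsf13c, the BAFF receptor of B cells (chr15:82221743-82224369, minus strand), measured 0.622, 1.97 and 1.09 CPM in flox and 0.754, 0.128, 0.594 and 0.159 CPM in knockout of batch 1. Batch 2 gave 6.64, 0.0589, 1.77 and 0.840 CPM in flox and 0.445, 0.343 and 0 CPM in knockout. Flox values spread over 2 orders of size in batch 2, and the log2 fold change of -2.33 ± 0.85 was not called (edgeR adjusted p = 0.0747). Tnfrsf17, or BCMA, the APRIL receptor of plasma cells, was too rare to test. It had 51 counts spread over 7 of 7 flox libraries and 2 counts in 2 of 7 knockout libraries, a ratio of CPM of 0.0859 (95% exact interval 0.0101 to 0.327, counting error only). Tnfrsf13b, or TACI, gave -0.51 ± 0.28 (edgeR adjusted p = 0.234) and Tnfsf13b, or BAFF, -0.14 ± 0.36 (edgeR adjusted p = 0.828). Of 5 tested B cell markers Ms4a1 and Ighm were called lower, and the summed level of the list was 34.2 to 71.6 CPM in flox and 18.2 to 46.5 CPM in knockout. Of 7 tested plasma cell markers 3 were called higher, with 88.5 to 194.1 CPM in flox and 175.9 to 299.1 CPM in knockout. Their part in these values was not tested.

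The RANK pair is best known from bone remodelling, and neither gene was called over both batches. Tnfrsf11b (chr15:54250619-54278484, minus strand) encodes osteoprotegerin, the decoy that binds RANK ligand. It measured 9.40, 31.5 and 18.2 CPM in flox against 1.38, 3.91, 2.05 and 3.33 CPM in knockout of batch 1, where the groups did not overlap. In batch 2 it measured 14.2, 7.71, 12.8 and 13.7 CPM in flox and 1.70, 19.7 and 2.97 CPM in knockout. Knockout 6 was above every flox library of its batch, and the other knockout libraries of that batch were below all of them. The log2 fold change was -1.69 ± 0.57 (edgeR adjusted p = 0.0586) over all libraries and -2.66 without knockout 6 (edgeR adjusted p = 0.000138). Batch 1 alone was called, at -2.92 ± 0.47 (edgeR adjusted p = 0.0204), 1 of 21 members tested there, where the test called 1.80% of all genes. Batch 2 alone gave -0.57 (edgeR adjusted p = 0.630). Summed fibroblast markers ran from 1386 to 3282 CPM in the batch 1 knockouts, and stood at 3311 and 3373 CPM in knockout 6 and 7 and 1493 CPM in knockout 5. Their part in the Tnfrsf11b values was not tested.

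Tnfrsf11a (chr1:105780718-105847981, plus strand) encodes RANK. It measured 14.8, 13 and 17.8 CPM in flox and 13.1, 17.9, 13.2 and 9.60 CPM in knockout of batch 1, where the groups overlapped. In batch 2 it measured 16.3, 9.71, 6.03 and 11.0 CPM in flox and 5.46, 1.26 and 3.52 CPM in knockout, with no overlap. Over all libraries the log2 fold change was -0.90 ± 0.35 (edgeR adjusted p = 0.0917). Batch 2 alone was called, at -1.65 ± 0.48 (edgeR adjusted p = 0.0493), and with Tnfrsf12a it made 2 of 24 members called there, where the test called 13.2% of all genes. Without knockout 6 and 7 the value over both batches was -0.41 ± 0.27 (edgeR adjusted p = 0.374). The difference between batches was tested as an interaction for all members. It was called for 0 of them, against 1.03% of all genes, and the lowest adjusted p by edgeR was 0.231. An unadjusted p under 0.05 was found for 3 of 23 members, close to the 13.9% of all genes. These were Tnfrsf11a (-1.48 ± 0.56, edgeR unadjusted p = 0.0185), Tnfrsf11b (2.32 ± 0.94, edgeR unadjusted p = 0.0274) and Tnfsf13 (1.51 ± 0.65, edgeR unadjusted p = 0.0357). Tnfsf11, which encodes RANK ligand, had 30 counts in flox and 59 in knockout and was not tested, with a ratio of CPM of 4.31 (95% exact interval 2.73 to 6.93, counting error only). Its counts were 4, 10, 3, 0, 0, 0 and 13 in flox 1 to 7 and 7, 12, 3, 6, 7, 24 and 0 in knockout 1 to 7. The interval leaves out this spread between libraries.

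**Figure D3:**
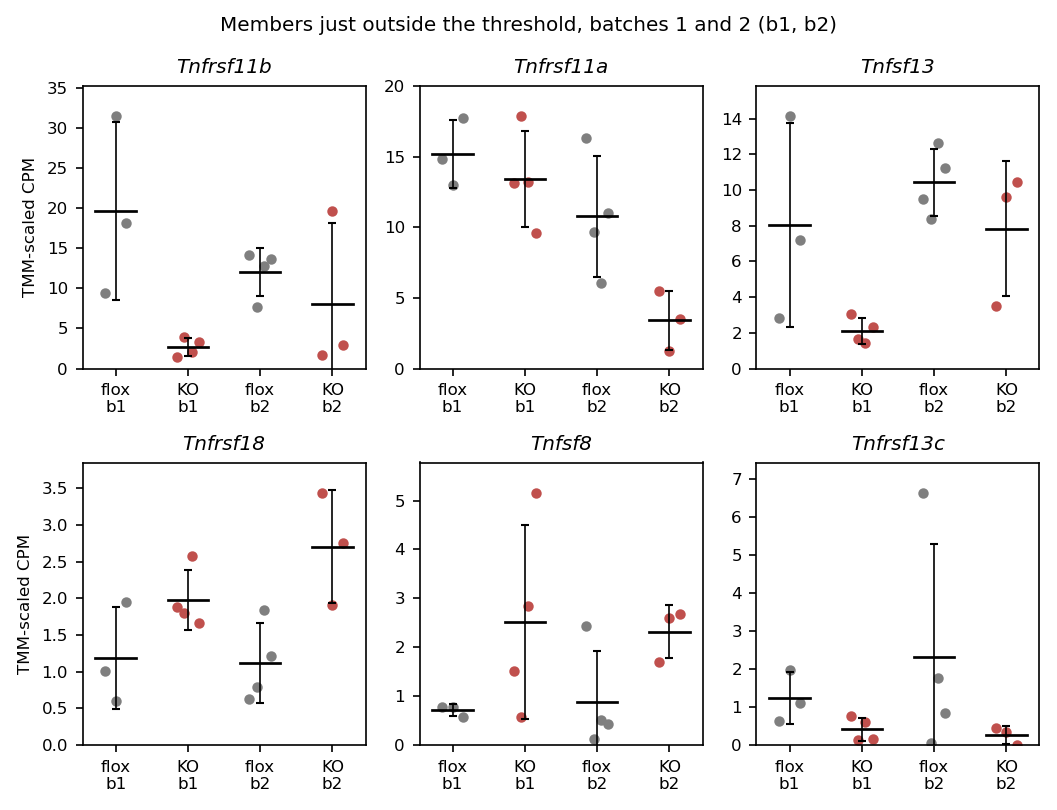
TMM-scaled CPM by library for 6 of the 7 members with an edgeR adjusted p from 0.05 to 0.1, flox in grey and knockout (KO) in red, in batch 1 (b1) and batch 2 (b2). Lines are means and bars SD over 3 or 4 libraries, drawn only above 0. Tnfrsf11b separates in batch 1 and has 1 high knockout library (19.7 CPM) in batch 2, whereas Tnfrsf11a separates in batch 2.

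Tnf, the ligand for which ADAM17 was named, was close to undetected in mouse ganglia. In flox libraries 1 to 7 it had 0, 2, 0, 0, 0, 0 and 1 counts, and in knockout libraries 1 to 7 it had 2, 4, 10, 3, 1, 0 and 4 counts. The 24 knockout counts and 3 flox counts made 0.179 and 0.0102 CPM, a ratio of 17.5 (95% exact interval 5.32 to 90.9, counting error only). Without knockout 3, which held the most, 14 counts remained and the ratio was 11.5 (3.22 to 62.6). These counts did not pass the filter, so the comparison has no test in the main analysis. When all genes were fitted without a filter, the log2 fold change was 3.59 (edgeR adjusted p = 0.0460). Knockout 3 also had the highest summed neutrophil markers, at 5106 CPM, and the part of that list in the Tnf counts was not tested.

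Both TNF receptors overlapped between genotypes. Tnfrsf1a (chr6:125349362-125362484, plus strand) measured 22.4, 41.6 and 37.8 CPM in flox and 37.0, 25.4, 36.2 and 46.8 CPM in knockout of batch 1, and 59.7, 40.5, 67.7 and 50.3 CPM in flox and 52.3, 82.2 and 88.2 CPM in knockout of batch 2. Its log2 fold change was 0.27 ± 0.18 (edgeR adjusted p = 0.322). Knockout 6 and 7 were its highest libraries, and without them the value was 0.05 ± 0.20 (edgeR adjusted p = 0.902). Tnfrsf1b (chr4:145213463-145246870, minus strand), TNF receptor 2, which lacks a death domain, measured 5.08 to 8.53 CPM in flox and 3.81 to 9.45 CPM in knockout. Its log2 fold change of 0.03 ± 0.21 (edgeR adjusted p = 0.943) changed sign in 7 of 26 other settings, so it has no stable direction.

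Of the T cell costimulators, Tnfrsf18 (chr4:156026164-156028895, plus strand), or GITR, measured 1.00, 0.596 and 1.96 CPM in flox and 1.88, 1.80, 2.57 and 1.67 CPM in knockout of batch 1, and 0.626, 0.795, 1.84 and 1.21 CPM in flox and 3.44, 1.90 and 2.76 CPM in knockout of batch 2. The batch 2 groups did not overlap, but the log2 fold change of 1.01 ± 0.35 was not called (edgeR adjusted p = 0.0594). Summed T and NK cell markers were 3.1 to 7.3 CPM in flox and 6.5 to 18.1 CPM in knockout, with Nkg7 called higher out of 8 tested, and their part in the Tnfrsf18 value was not tested. Tnfrsf4 (OX40) had 114 counts in flox and 19 in knockout, and Tnfrsf9 (4-1BB) 86 and 41, in totals that do not allow for the deeper flox libraries. Tnfrsf14 (HVEM) had 31 and 39 counts, Tnfsf14 (LIGHT) 69 and 90, Tnfsf18 4 and 1, and Tnfsf4 2 and 2. With Tnf, Tnfrsf8, Tnfrsf17 and Tnfsf11 these made up the 10 members without a test.

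The TRAIL group and the remaining members gave adjusted p-values by edgeR of at least 0.235. Tnfsf10, or TRAIL, had a log2 fold change of 0.09 ± 0.25 and its death receptor Tnfrsf10b -0.19 ± 0.28. The Tnfsf10 groups did not overlap in batch 2 (6.65 to 7.19 CPM in flox, 7.56 to 10.8 CPM in knockout) but overlapped in batch 1. The decoy receptors Tnfrsf22 and Tnfrsf23 had -0.43 ± 0.24 and -0.20 ± 0.50, and Tnfrsf26, another decoy-type gene, had 0.57 ± 0.53. Tnfrsf19, or TROY, expressed in the nervous system, had -0.35 ± 0.44, and Tnfsf9 had -0.19 ± 0.35.

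Superfamily genes under other names were looked at next. Of 8 such receptors 7 were tested and 1 was called, where 15.5% of all genes were called. Fas (chr19:34290666-34327772, plus strand), the death receptor of Fas ligand, rose by 0.63 ± 0.20 on the log2 scale (edgeR adjusted p = 0.0438). Its deposited TPM was 8.78 ± 2.62 in flox (SD, n = 7) and 13.3 ± 1.69 in knockout (n = 7). For mouse genes here and below, TPM means pool both batches without a batch term, so they need not match the fitted log2 fold change. Cd40 lay just outside the threshold at -1.11 ± 0.38 (edgeR adjusted p = 0.0574). The neurotrophin receptor Ngfr, at 32.1 ± 19.6 TPM in flox (SD, n = 7), gave 0.13 ± 0.12. Of 6 such ligands, Ltb and Eda were tested and neither was called. The Fas call was lost in 8 of the fits that left out 1 library.

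Of 10 genes that act on TNF protein release or on its message, 2 were called, both lower, where 15.5% of all genes were called and 7.51% were lower. Timp3, which encodes an inhibitor of metalloproteases that include ADAM17, fell by 0.82 ± 0.16 on the log2 scale (edgeR adjusted p = 0.00312), with 63.8 ± 28.4 TPM in flox and 47.7 ± 27.6 TPM in knockout (SD, n = 7 each). Rhbdf1, which encodes iRhom1, a partner that helps ADAM17 mature, fell by 0.41 ± 0.12 (edgeR adjusted p = 0.0346), with 11.6 ± 2.36 and 8.87 ± 1.36 TPM. Its relative Rhbdf2 gave -0.07 ± 0.21. Adam10, a related sheddase, gave 0.51 ± 0.19 (edgeR adjusted p = 0.0784), and Zfp36, which encodes the TNF message decay factor tristetraprolin, -0.59 ± 0.31 (edgeR adjusted p = 0.199). The list had a median log2 fold change of -0.08 against -0.01 over all genes.

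Downstream of the receptors, 2 of 29 adaptors and death-domain proteins were called, against 15.5% of all genes. Unadjusted p-values under 0.05 by edgeR were found for 9 of the 29, close to the 30.9% of all genes. Ripk3, the kinase of necroptosis, rose by 1.42 ± 0.34 on the log2 scale (edgeR adjusted p = 0.0117). Its deposited TPM was 1.08 ± 0.42 in flox and 2.95 ± 1.32 in knockout (SD, n = 7 each). Traf2, an adaptor of both TNF receptors, rose by 0.39 ± 0.13 (edgeR adjusted p = 0.0474). Traf5 (-0.54 ± 0.19) and Traf4 (-0.90 ± 0.33) had edgeR adjusted p-values of 0.0684 and 0.0728. The list had a median log2 fold change of 0.01.

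Among NF-kappaB subunits, inhibitors and targets, 7 of 23 tested genes were called, 5 higher and 2 lower, against 15.5% of all genes (7.97% higher and 7.51% lower). Unadjusted p-values under 0.05 by edgeR were found for 9 of the 23, against 30.9% of all genes. The list was chosen with earlier results of these data known, so these shares only describe it. Bcl3, an atypical NF-kappaB cofactor, rose by 1.52 ± 0.27 (edgeR adjusted p = 0.00167). Its deposited TPM was 3.78 ± 2.03 in flox and 15 ± 9.63 in knockout (SD, n = 7 each). Nfkbiz, of the same class, rose by 1.27 ± 0.26, and the adhesion molecule Vcam1 by 1.11 ± 0.23, both with an edgeR adjusted p under that of any family member. Sele, the selectin of activated endothelium, rose by 3.45 ± 0.86 from a level of 0.0995 ± 0.157 TPM (SD, n = 7), and Il6 by 2.30 ± 0.67. Nfkb1, a core subunit, fell by 0.67 ± 0.17 (edgeR adjusted p = 0.0146) and the macrophage growth factor Csf1 by 0.55 ± 0.17. The list had a median log2 fold change of 0.18. The neutrophil markers rose in the same libraries. Of 8 macrophage and 6 endothelial markers 0 were called, though 2 in each list had an unadjusted p under 0.05 by edgeR. The part of other cells in these values was not tested.

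In monkeys the family was compared between ganglia of SADBE-treated and vehicle-treated skin, which addresses whether skin inflammation is accompanied by a change in the ganglion. In vehicle ganglia TNFRSF12A had the highest median at 35.3 TPM (12 to 53.6), followed by TNFRSF1B at 29.2 TPM (28.1 to 71.5), TNFRSF1A at 20.1 TPM (7.50 to 26.3) and TNFRSF21 at 19.8 TPM (8.44 to 39.6). TNFRSF19 had 11.5 TPM (3.66 to 16.3) and TNFRSF14 10.4 TPM (9.24 to 17.3). The leading ligands were TNFSF13 at 22.7 TPM (18.1 to 24.8) and TNFSF10 at 20.4 TPM (17.1 to 28.9), then TNFSF14 at 5.36 TPM (1.59 to 7.56) and TNFSF13B at 3.77 TPM (3.25 to 5.56). Most of these ranges overlap with 3 libraries. The receptors of highest level in mice, Tnfrsf21, Tnfrsf1a and Tnfrsf12a, were thus among the first 4 in monkeys, and TNFRSF1B, whose mouse counterpart had a median of 1.98 TPM, joined them. The species were quantified separately, so these levels are set side by side without a test. The rule gave 27 symbols in both species, of which 15 were tested in both, and TNFSF12 has no row in the monkey tables used here.

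Between SADBE and vehicle, 0 of the 21 tested members were called by edgeR, and 0 had an unadjusted p under 0.05. The same test called 0 of 17988 genes and gave an unadjusted p under 0.05 for 3.06% of them. DESeq2 called 27 genes and limma voom 0, none of them a member. Members had a median SE of 0.72 on the log2 scale, so a 2-fold change, which is 1 on that scale, was little more than 1 SE. The lowest unadjusted p was 0.151 by edgeR.

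TNF itself was measurable in monkey ganglia, with 11, 24 and 10 counts in vehicle and 5, 6 and 8 in SADBE, or 0.323, 0.906 and 0.874 CPM and 0.245, 0.674 and 0.435 CPM. The groups overlapped, with a log2 fold change of -0.65 ± 0.83 (edgeR unadjusted p = 0.451). TNFRSF1A measured 27.0, 29.5 and 12.1 CPM in vehicle and 15, 13.7 and 13.9 CPM in SADBE (log2 fold change -0.69 ± 0.46, edgeR unadjusted p = 0.172). The SADBE libraries lay close together between the vehicle extremes. TNFRSF1B measured 67.0, 53.9 and 197 CPM in vehicle and 39.6, 240.1 and 77.4 CPM in SADBE, with 1 high library in each group (log2 fold change 0.17 ± 0.75, edgeR unadjusted p = 0.830).

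TNFSF13B, the gene of BAFF, was the 1 tested member whose groups did not overlap in CPM. It measured 7.40, 8.80 and 7.52 CPM in vehicle and 7.14, 4.61 and 3.97 CPM in SADBE, with a log2 fold change of -0.59 ± 0.48 (edgeR unadjusted p = 0.253). As 9.18% of all tested genes did not overlap in CPM, 1 of 21 members is no more than the background. Summed macrophage markers were 389.2 to 496.7 CPM in vehicle and 230.2 to 502.0 CPM in SADBE. TNFSF13 measured 17.4, 19.8 and 26.8 CPM in vehicle and 21.2, 33.5 and 30.2 CPM in SADBE (0.41 ± 0.42, edgeR unadjusted p = 0.352), and its groups overlapped in CPM. In deposited TPM this was reversed. There TNFSF13B overlapped (3.25 to 5.56 in vehicle, 1.94 to 3.32 in SADBE). TNFSF13 did not (18.1 to 24.8 in vehicle, 25.0 to 33.7 in SADBE), so which member separates depends on the measure.

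The groups of the remaining members of lowest p overlapped. TNFRSF11B ran from 0.0874 to 3.00 CPM in vehicle and measured 0, 4.38 and 18.7 CPM in SADBE (2.78 ± 1.76, edgeR unadjusted p = 0.151), and without SADBE 3 the log2 fold change was 0.91. TNFSF8 measured 3.06, 4.53 and 0.612 CPM in vehicle and 0.587, 0.337 and 2.17 CPM in SADBE (-1.38 ± 0.95, edgeR unadjusted p = 0.180). TNFRSF10B measured 6.11, 9.55 and 6.29 CPM in vehicle and 4.40, 11.3 and 11.2 CPM in SADBE (0.29 ± 0.54, edgeR unadjusted p = 0.60). TNFRSF12A and TNFRSF21, whose mouse counterparts rose in knockout, had log2 fold changes of -0.06 ± 0.73 and -0.07 ± 0.67. Of the 9 untested members TNFRSF13C had 0 counts. TNFRSF18 had 1, 22 and 41 counts in vehicle and 0, 1 and 3 in SADBE, and its groups overlapped in CPM. Makeup varied between libraries: vehicle 1 had the lowest summed sensory neuron markers (1720 CPM, others 3643 to 7310) and the highest fibroblast (4127 CPM, others 669.3 to 2886) and neutrophil markers (673.4 CPM, others 13.1 to 99.8). The part of this in the monkey values was not tested.

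**Figure D4:**
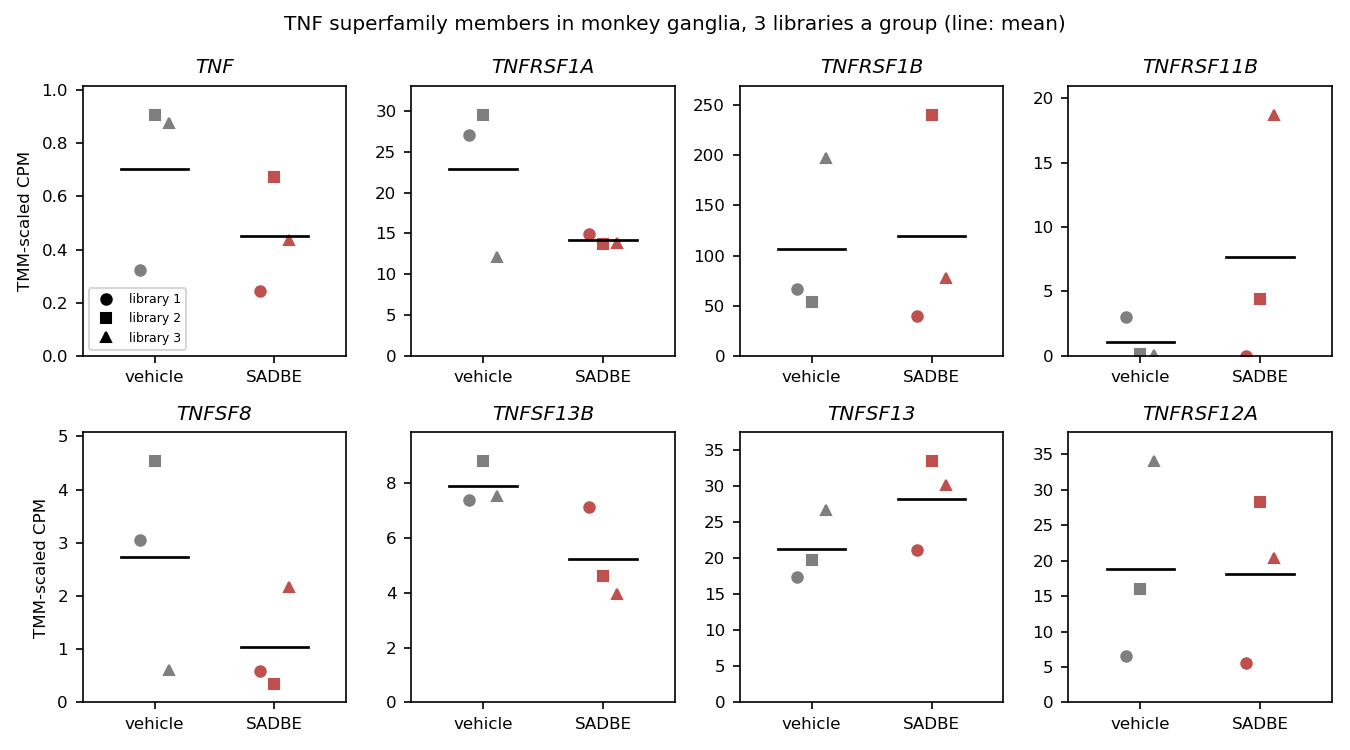
TMM-scaled CPM of 8 family genes in monkey ganglia, with vehicle in grey, SADBE in red, the library number as the symbol and the group mean as a line (3 libraries a group). TNFSF13B shows no overlap (7.40 to 8.80 CPM and 3.97 to 7.14 CPM), while TNFRSF1B has 1 high library in each group (197 and 240.1 CPM).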

How the data were processed

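Per the labels' protocols, RNA came from frozen ganglia by Direct-zol columns. The authors deposited estimated counts per gene and TPM per gene for each species. Both come from kallisto with GRCm38, per the submitters' processing notes, and its version and the monkey transcriptome are not given in the sources used here. Such pseudoalignment splits reads among overlapping transcripts, and whether strand was kept is not stated. A mouse row that names no gene (0.0785% to 0.186% of counts) was left out. The deposited TPM columns summed, in units of 1000, to 601 to 834 in mouse batch 1, 954 to 979 in batch 2 and 1000 in monkeys, so mouse TPM levels differ in scale between batches. No library was a copy of another (chi-square per gene at least 22.1).

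Estimated counts were rounded and tested with edgeR 4.0.16 in R 4.3.3: filterByExpr (minimum count 10, minimum total 15), TMM scaling, robust quasi-likelihood F test with batch as a covariate in mice, Benjamini-Hochberg adjustment over all tested genes, and a call at an adjusted p under 0.05. SE is the log2 fold change divided by the square root of F. CPM values are TMM-scaled. DESeq2 1.42.0, limma 3.58.1 (voom, and log2(TPM + 1) or log2(TPM + 0.1)), other scaling, filtering, thinning and left-out libraries were alternatives. Scripts were tested on simulated data. Coordinates are from GENCODE M21 and promoters from RefSeq. The members and lists were chosen with earlier results of these data known. Named with values were TNF and its 2 receptors, called members, members with an adjusted p from 0.05 to 0.1, the 4 ligands and 6 receptors of highest control median, and in monkeys the 3 lowest p in each direction and members without overlap, plus up to 4 genes of lowest p per list. The called NF-kappaB genes beyond the first 4, Rhbdf2, Ngfr and the members given for completeness were named after their values were seen.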

Additional observations from a re-analysis of the deposited data

Results flagged for a closer look

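The highest and lowest library of each genotype was compared with its nearest neighbour for the 23 tested mouse members (46 groups of 7 libraries). In 3 groups the gap was a larger share of the whole range than Dixon's 95% critical value allows, and chance flags about 1 group in 20. Tnfrsf11b stood at 19.7 CPM in knockout 6 against 3.91 CPM in the next knockout library, a gap of 0.862 of the range. Tnfrsf13c stood at 6.64 CPM in flox 4 against 1.97 CPM in the next flox library (0.709 of the range). Tnfsf8 stood at 2.43 CPM in flox 4 against 0.782 CPM in the next flox library (0.713 of the range).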

How the results depend on the processing

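Limits were the number of libraries, the unequal depth of the genotypes in batch 1, and the low counts of Tnf, Tnfsf15, Tnfsf8 and Tnfrsf13c. The cause of the shifts below was not tested, except where fewer libraries or genes entered a fit. Of the 4 called members, Tnfrsf12a was called in 22 of 26 settings, Tnfsf12 in 18 of 26, Tnfsf15 in 14 of 24 and Tnfrsf21 in 9 of 26, and none changed sign in these.

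Members called higher (2) and lower (2) became 4 and 7 with DESeq2, 0 and 0 without the batch term, 0 and 1 in batch 1 alone, 1 and 1 in batch 2 alone, and 1 and 4 without knockout 6 and 7. With counts thinned to the smallest library, 0 were lower. With 1 library left out, 1 to 2 were higher and 0 to 5 lower: 0 lower without flox 2 or knockout 5, and 5 without flox 5. Over all genes, 2423 calls became 564 without the batch term, 273 in batch 1 alone, and 1587 to 3108 with 1 library left out. The DESeq2 calls over all mouse genes are not given, so the mouse DESeq2 counts here and below have no background share.

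Superfamily ligands with other names (0 called) had 1 call with log2(TPM + 1) and 1 with log2(TPM + 0.1), and 0 to 0 with 1 library left out. The receptors with other names (1 called) had 2 calls with DESeq2, 0 in each of the unfiltered, thinned, replicate block, no batch term, batch 1, batch 2 and knockout 6 and 7 left-out settings, and 0 to 1 with 1 library left out. The shedding list (2) had 0 without the batch term, 0 in batch 1 alone, 1 without knockout 6 and 7, and 1 to 2 with 1 library left out. The adaptors (2) had 4 with DESeq2, 0 in batch 1 alone, 1 in each of the unfiltered, both TPM, thinned, replicate block, no batch term, batch 2 and knockout 6 and 7 left-out settings, and 1 to 2 with 1 library left out. The NF-kappaB list (7) had 2 without the batch term, 1 in batch 1 alone, 2 in batch 2 alone and 5 to 7 with 1 library left out. Monkey genes called were 27 with DESeq2 and 0 with 1 library left out.

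The labels do not say whether replicate numbers pair the libraries. Same-numbered residuals correlated at -0.29 to 0.11 over 7 mouse pairs and at 0.21, -0.31 and 0.23 in monkeys. With so few libraries these values cannot decide it, and knockout 4 and flox 4 are in different batches. With a replicate block 2 members were higher and 3 lower in mice, and Tnfrsf12a (edgeR adjusted p = 0.0674) and Tnfsf15 (edgeR adjusted p = 0.121) were not called. The log2 fold change of Tnfrsf1b became -0.011 with voom, -0.066 with the replicate block, -0.14 in batch 2 alone and -0.10 to 0.16 with 1 library left out. That of monkey TNFRSF1B became -0.072 with the replicate block and -0.88 to 0.95 with 1 library left out. Rescaling TPM to a common sum moved the flox median of Tnfrsf12a to 23.2 TPM and of Tnfrsf22 to 4.37 TPM.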
